A study of Aspergillus luchuensis with 6 samples.

Results

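The last 100 kb of scaffold 2 (DF126448.1, positions 1907002 to 2007002, the highest position listed) was mapped for transcription start sites in Aspergillus luchuensis mut. kawachii, a white koji mould, grown as rice koji. Start sites came from CAGE (cap analysis of gene expression), which sequences the capped 5′ ends of transcripts, so that each tag marks 1 start at the level of a base. Koji is steamed rice overgrown by the mould. There were 3 libraries of a control strain, ctrl4, and 3 libraries of a strain whose sirtuin D gene, sirD, had been disrupted, called the disruptant here. Each group is 1 strain, and the labels give no age of the koji and no batch. They also do not say whether replicates came from separate cultures, so the spread between libraries may be technical. Positions that held at least 2 tags in all libraries together were joined into clusters where 20 bp or less lay between them on a strand, which gave 861 clusters in the stretch of 36260 in the whole table. The stretch was chosen by a measured value, the number of start clusters lower in the disruptant than in the control in these same libraries. Differences between the strains are therefore given as a description, and calls serve to sort the clusters.

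Sirtuins are NAD-dependent protein deacylases, and several of them remove acetyl groups from histones. In budding yeast a sirtuin is part of the complex that keeps genes near chromosome ends silent. In filamentous fungi, regions near chromosome ends are known to be rich in genes of secondary metabolism and in genes that differ between strains. Most promoters give a group of nearby start positions rather than a single base, and neighbouring clusters on a strand may mark starts of the same transcript. No gene annotation in these coordinates was used, so clusters are named by position, and the sources used here do not say whether the scaffold ends at a chromosome end. The disrupted gene could not be placed in these coordinates, and its level is not reported here.

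Depth ranged from 3148498 to 3275687 listed tags in the control and from 3336690 to 3580777 in the disruptant. Of these, 64033 to 71897 control tags and 77674 to 79244 disruptant tags per library lay in the stretch. Levels are given in CPM (the tag count relative to the library's tags in tested clusters, after TMM scaling) as mean ± SD of 3 libraries. The median coefficient of variation of a cluster in the stretch was 19.5% between control and 22.8% between disruptant libraries, against 19.6% and 18.3% in the rest of scaffold 2. Enough tags for the fit were found in 116 of the 861 clusters, 57 on the plus and 59 on the minus strand. A cluster is called lower or higher where edgeR's quasi-likelihood fit over all 4083 clusters tested in the table gave a Benjamini-Hochberg adjusted p below 0.05. In these bulk libraries, fewer hyphae that use a start site and fewer transcripts per hypha cannot be told apart.

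In the control the stretch was laid out much like the rest of its scaffold. It held 11.7 tested clusters per 10 kb, against 9.96 in the rest of scaffold 2. The median tested cluster was 97.5 bp wide at 11.8 CPM, against 113 bp at 11.3 CPM, and 49.1% lay on the plus strand, against 48.9%. Clusters of 100 CPM or more in the control made up 19.0% of the tested clusters, against 18.1%. Tag density per kb was higher, at 203, 221 and 220 CPM in the control libraries, against 130, 139 and 143 in the rest of the scaffold. The largest single contribution came from the plus-strand cluster at 1909344 to 1909643, with 7141 ± 1161 CPM.

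Of the 116 tested clusters, 43 were lower in the disruptant, 6 were higher and 67 were not called. Among all tested clusters 14.0% were lower and 10.4% higher, and in the rest of scaffold 2 these shares were 13.7% and 11.2%. The stretch had 37.1% lower and 5.17% higher, figures that led to its choice and from which nothing further is read. The median log2 difference, disruptant minus control, was −0.39 in the stretch, 0.01 in the rest of scaffold 2 and 0.00 over all tested clusters. The lower clusters ran from −0.48 to −2.93 with a median of −1.36, and the higher ones had a median of 0.48, against 0.96 for the higher clusters in the rest of the scaffold. In 40 of the 43 lower clusters and in all 6 higher ones the libraries of the strains did not overlap. Of all 116, 61 had no overlap (52.6%, against 39.7% over all tested clusters and 41.5% in the rest of the scaffold). The disruptant was below in 50 of them (43.1%, against 21.3% of all) and above in 11 (9.48%, against 18.4%). A fall of 2-fold or more was called in 33 clusters (28.4%, against 8.99% of all and 9.26% of the rest of the scaffold). Of the lower clusters, 8 kept under 25% of the control level, 25 kept between that and 50%, and 10 kept 50% or more.

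Lower clusters were found at every level of abundance in the stretch. Among clusters of 100 CPM or more over the 6 libraries, 7 were lower and 4 higher of 22, where the rest of the scaffold had 30 lower and 44 higher of 242. Between 10 and 100 CPM, 16 of 34 were lower, against 84 of 453. Below 10 CPM, 20 of 60 were lower, against 66 of 622. A lower cluster can pass the count filter through its control libraries alone, which was so for 17 of the 43. Of the 76 clusters that reached the filter's count in all libraries of both strains, 26 (34.2%) were lower and 5 (6.58%) higher, against 13.7% and 11.2% of all clusters that did so. Leading clusters, the most abundant of their strand within 2 kb, numbered 29, and 8 (27.6%) were lower and 2 (6.90%) higher. Of all leading clusters 17.7% were lower and 12.5% higher, and in the rest of scaffold 2 18.2% and 12.5%.

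**Figure D1:**
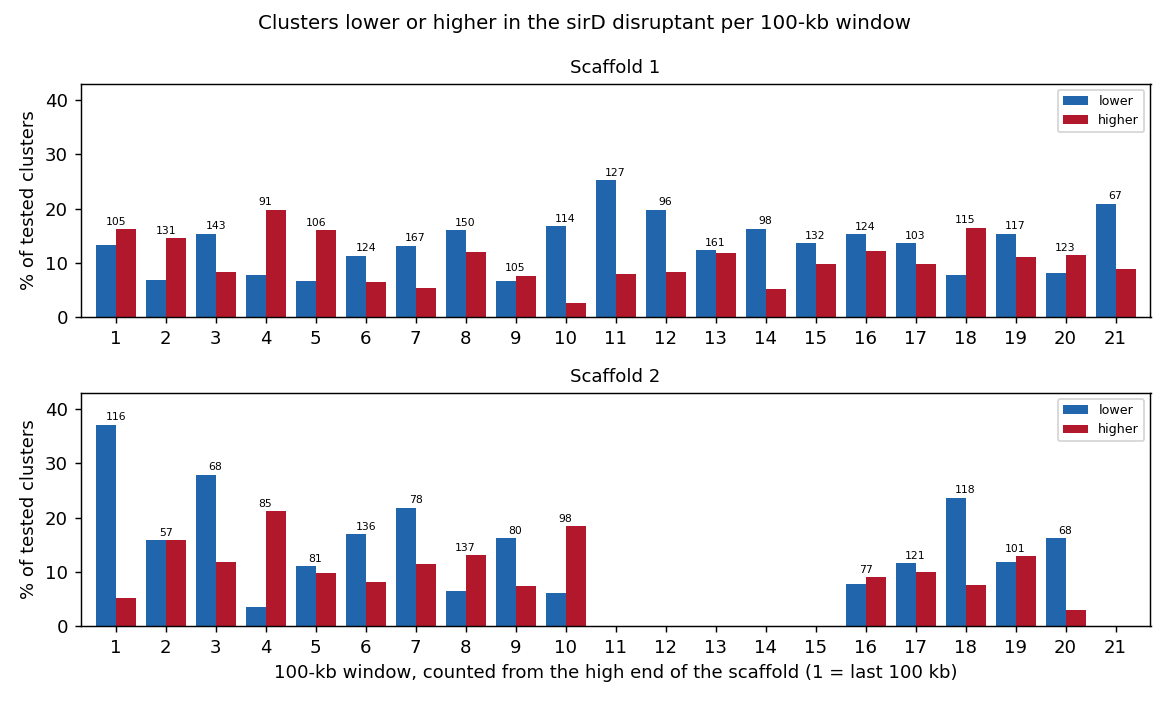
Share of tested clusters lower (blue) or higher (red) in the sirD disruptant in 100-kb windows, counted from the high end of each scaffold, with the number of tested clusters above the bars. Windows with fewer than 20 tested clusters are left out, among them the part of scaffold 2 without rows. Window 21 of scaffold 1 spans only positions 1 to 77004. The last 100 kb of scaffold 2 is window 1 of the lower panel, with 37.1% lower and 5.17% higher.

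Set beside 35 other windows of up to 100 kb on both scaffolds with 20 or more tested clusters, the stretch had the most lower clusters and the largest share of them. The windows are not all of equal listed length. That at the low end of scaffold 1 spans 1 to 77004, and some of scaffold 2 may be listed only in part. The other windows held 3 to 32 lower clusters with a median of 14, or 3.53% to 27.9% of their tested clusters. The lowest median log2 difference among the others was −0.34. Counted by leading clusters, the stretch did not rank first. It had 8 lower of 29, while scaffold 1 had 10 of 34 from 1077005 to 1177004 and 9 of 32 from 677005 to 777004. Other windows had fewer, down to 0 of 33 from 1607003 to 1707002 of scaffold 2. With windows counted from the low end of the scaffold, the window from 1900001 to 2000000 held 46 lower of 124 tested clusters, again 37.1%, and the others up to 29.2%. The stretch was chosen for this count, and its rank is a description.

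Tags of the whole stretch did not fall with the lower clusters. The table ends inside scaffold 2, so tag shares refer to its listed part. Of the listed cluster tags of scaffold 2, the stretch took 10.6%, 10.8% and 10.4% per control library, against 11.4%, 11.2% and 11.4% per disruptant library. The disruptant libraries were all above the control libraries. Without the most abundant cluster the order turned, from 7.24% ± 0.398 in the control to 6.74% ± 0.236 in the disruptant. Every disruptant library then lay below every control library. Lower clusters took 13.7% ± 1.32 of the stretch's cluster tags in the control and 5.31% ± 0.172 in the disruptant. The 6 higher clusters took 40.7% ± 4.55 and 52.6% ± 1.99, and clusters not called took 44.1% ± 3.22 and 40.9% ± 2.03. In CPM, the lower clusters together gave 2917, 2627 and 3011 in the control and 1194, 1186 and 1263 in the disruptant, which leaves 42.6% of the control level. The clusters not called summed to 9203 ± 218 and 9349 ± 483 CPM, or 101.6%. The calls sort clusters by this same difference, so shares and sums by call describe the sorting and are no separate result.

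**Figure D2:**
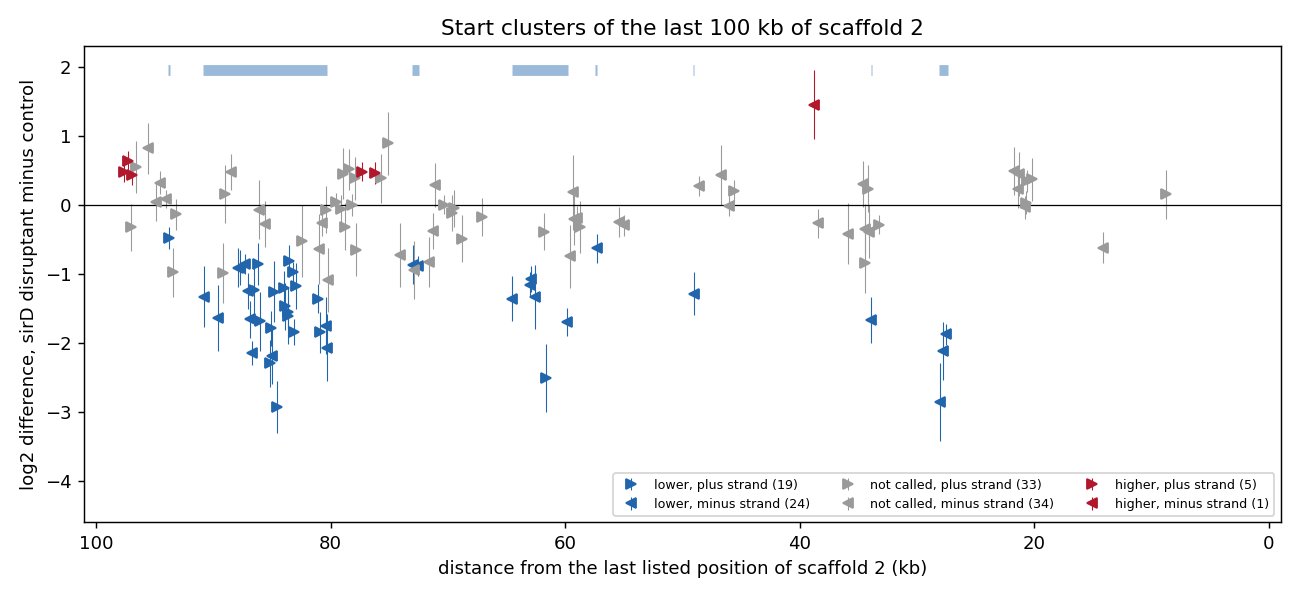
Log2 difference between strains (disruptant minus control, bars 1 SE) of the 116 tested clusters against their distance from the last listed position. Arrowheads point right for plus and left for minus, and colour gives the call. Pale blue bars at the top mark lower clusters joined when 2 kb or less apart. The longest bar, with 28 lower clusters, lies 80.3 to 90.8 kb from the end. The 3 higher clusters at the far left are separated from it by clusters not called and by a single lower one.

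Lower clusters lay in separate places, with start sites between them that were not called or, in a few cases, higher. Joined when 2 kb or less apart, a distance chosen after the values were seen, the 43 lower clusters formed 8 tracts that covered 17.3% of the stretch. Joined within 1 kb they formed 13 tracts over 10.1% of it, the largest from 1919037 to 1924339 with 22 lower clusters, and within 5 kb 6 tracts over 22.4%, the largest with 29. The largest tract ran from 1916173 to 1926724, where 28 of 37 tested clusters were lower and none was higher. A tract at 1942445 to 1947247 had 6 lower of 7, one at 1978907 to 1979621 had 3 of 3, and one at 1933916 to 1934572 had 2 of 3. The other 4 tracts were single clusters. The last lower cluster ended at 1979621, 27.4 kb before the end, and the 9 tested clusters beyond it were not called. In 10-kb bins counted from the end, lower clusters numbered 0, 0, 3, 1, 1, 2, 5, 2, 27 and 2. The tested clusters in these bins numbered 1, 1, 10, 10, 5, 9, 10, 20, 37 and 13, so the outermost bins could show little.

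The inner edge of the stretch was marked by higher start sites. The last tested cluster outside, on the minus strand at 1905137 to 1905197, had 8.54 ± 1.59 CPM in control and 9.55 ± 1.84 CPM in disruptant libraries and was not called. The first inside was the plus-strand cluster at 1909344 to 1909643, the most abundant of the stretch. It had 18807, 26532 and 22024 control tags, against 32170, 35424 and 33053 disruptant tags. All disruptant libraries were above all control libraries, with a rise from 7141 ± 1161 to 9920 ± 378 CPM (log2 0.47, SE 0.14). Downstream on the same strand, the cluster at 1909717 to 1909905 had 2787, 3710 and 3294 tags against 5136, 5690 and 5591 (log2 0.64, SE 0.14). That at 1910077 to 1910341 went from 118 ± 12.4 to 159 ± 7.41 CPM (log2 0.43, SE 0.14). These 3 clusters reached 135.0% to 155.7% of the control. The small cluster between the last pair of them, at 1909987 to 1910000, had 69 control and 59 disruptant tags and was not called.

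Of the next 4 tested clusters, 1 on the plus and 3 on the minus strand, none was called. The cluster at 1911326 to 1911522 had 8, 15 and 10 control and 25, 17 and 21 disruptant tags, without overlap between strains (log2 0.82, SE 0.37). The most abundant of the 4, at 1912254 to 1912887, was at 112 ± 23.4 and 139.5 ± 28.3 CPM, with overlap. A pair that points in opposite directions followed. Its minus-strand member, at 1912911 to 1913057, had 5607, 5358 and 5134 tags in the control and 6864, 5783 and 5663 in the disruptant, levels of 1707 ± 64.3 and 1806 ± 209 CPM that overlapped (log2 0.08, SE 0.13). On the plus strand 116 bp away, the cluster at 1913173 to 1913333 was lower, with 928, 903 and 904 tags against 524, 775 and 812. Its disruptant level of 208 ± 45.4 CPM was 71.6% of the control, the mildest change among the lower clusters, and 1 library (524 tags) lay well below the others. Whether these divergent partners differ in their response was not tested.

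The largest tract began with small clusters. A minus-strand cluster at 1916173 to 1916272 fell to 39.7% of 7.24 ± 2.44 CPM, and another at 1917338 to 1917409 to 31.2% of 4.74 ± 2.08 CPM. In the first of them the libraries of the strains overlapped, and both had passed the count filter through the control libraries alone. From 1917780 to 1918491, 3 small clusters were not called, among them the minus-strand cluster at 1918424 to 1918491, with 30, 47 and 39 control and 49, 50 and 74 disruptant tags.

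From 1919037 to 1920813, 8 neighbouring tested clusters were lower, 6 of them on the minus strand. The most abundant was at 1919404 to 1919880, with 1604, 1657 and 1913 tags in the control and 985, 1082 and 1013 in the disruptant. Its level went from 551 ± 86.0 to 304 ± 11.1 CPM (log2 −0.86, SE 0.14). Upstream on that strand, the cluster at 1920141 to 1920474 had 785, 907 and 1090 tags against 239, 196 and 242, and fell from 297 ± 65.8 to 66.8 ± 8.34 CPM (log2 −2.15, SE 0.17). The libraries were far apart in both.

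Residual levels on this strand differed along the group. Counted downstream from the most upstream cluster, the 6 minus-strand clusters kept 22.5%, 31.5%, 42.1%, 55.1%, 53.1% and 52.9% of their control levels. In the cluster at 1920141 to 1920474 single disruptant libraries stood at 19.3% to 24.2% of the control mean, and in that at 1919404 to 1919880 at 53.3% to 57.3%. These ranges did not overlap, and the difference between clusters was not tested. The small plus-strand clusters of the run kept 42.2% (1920464 to 1920501) and 54.6% (1920748 to 1920813). The first of them had passed the count filter through the control libraries alone.

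A second group followed at 1921778 to 1924339, where 13 neighbouring clusters were lower, 12 of them on the plus strand. This run is sensitive to single calls. The longest run was 5 clusters without control library 1 or without disruptant library 2, in both cases in the group just described. The most abundant cluster of the second group was at 1923643 to 1923861, with 735, 588 and 580 tags against 387, 320 and 330, a fall from 202 ± 24.9 to 102 ± 11.6 CPM (log2 −0.98, SE 0.15). Its downstream neighbour at 1923882 to 1923965 had 650, 516 and 496 tags against 221, 133 and 145, and fell from 176 ± 23.3 to 49.3 ± 14.6 CPM (log2 −1.84, SE 0.19). In each, all control libraries were above all disruptant libraries.

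Some clusters of this group had few disruptant tags. Those at 1922394, 1921778, 1921935, 1922197, 1923076 and 1923385 passed the count filter through the control libraries alone, so low shares are favoured among them. The plus-strand cluster at 1922394 to 1922417 had 49, 34 and 40 tags in the control and 5, 9 and 3 in the disruptant, which is 12.8% of the control level (log2 −2.93, SE 0.38). From the summed tags the share was 12.9%, with an exact 95% counting interval of 7.26% to 21.4%. At 1921778 to 1921817, 37, 47 and 54 tags stood against 10, 14 and 6, or 20.2% of the control from summed tags, and at 1921883 to 1921926 the level fell from 28.0 ± 5.37 to 8.08 ± 2.07 CPM. The cluster at 1923207 to 1923362 went from 35.5 ± 3.85 to 12.0 ± 2.42 CPM. The only minus-strand member, at 1921935 to 1922052, had 40, 41 and 31 tags against 2, 8 and 16, so its disruptant libraries ranged from 5.05% to 40.2% of the control mean. Residual shares of the 12 plus-strand clusters went up and down along the strand, between 12.8% and 56.8%, and the last, at 1924098 to 1924339, stood at 44.0%.

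Use of positions within a cluster was tested in 29 clusters of the stretch and differed in 1 (3.45%), against 1.79% of 1286 clusters in the table (edgeR diffSpliceDGE, adjusted p below 0.05), a share near the background from which nothing is read. The cluster was that at 1923643 to 1923861, which was also called without disruptant library 1. Leaving out any one of the other 5 libraries ended that call, with an adjusted p of 0.0513 to 0.68 from diffSpliceDGE. Its mean start over positions with 10 or more tags, counted from the cluster's first base, was at 130, 127 and 128 bp in the control and at 118, 116 and 113 bp in the disruptant. Position 1923781 went from 14.8% ± 0.575 to 9.76% ± 0.111 of the tags at those positions, and position 1923725 from 3.47% ± 0.431 to 9.88% ± 3.17. These positions have the largest loss and gain and were picked after the values were seen. In 6 of the 29 clusters the mean starts of the strains did not overlap (20.7%, against 28.8% of all 1286), with shifts of −12.9 to 9.4 bp downstream, and the fit called none of the other 5.

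**Figure D3:**
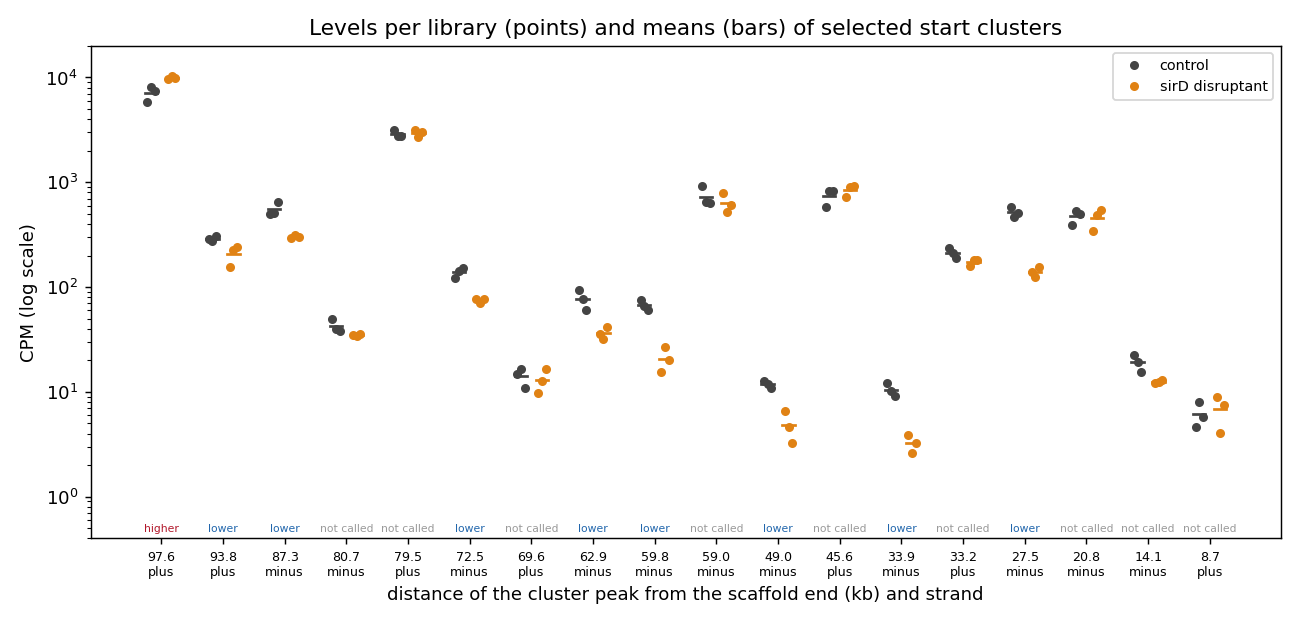
Levels per library (points, CPM on a log axis) and means (bars) of 18 clusters, the most abundant lower and the most abundant other cluster of each 10-kb bin, labelled by the distance of the peak from the scaffold end and the strand, with the call below. The cluster 79.5 kb from the end (1927324 to 1927737) overlaps between strains, while those 87.3 kb (1919404 to 1919880) and 27.5 kb (1979262 to 1979621) from it are apart in all libraries.

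At the outer side of the largest tract, lower clusters and clusters not called were mixed. The last lower clusters included the plus-strand clusters at 1925769 to 1925930, which fell from 40.6 ± 6.92 to 15.8 ± 2.52 CPM (log2 −1.36, SE 0.21), and at 1926027 to 1926186, which kept 27.6%. The minus-strand clusters at 1926585 to 1926624 and 1926700 to 1926724 kept 29.3% and 23.2%, and both had passed the count filter through the control libraries alone. Beside them on that strand, the cluster at 1926256 to 1926556 had 160, 130 and 111 tags against 117, 118 and 121 and was not called (log2 −0.27, SE 0.18), although its level was a little lower in all disruptant libraries after scaling. On the opposite strand the cluster at 1926622 to 1926711 stood at 94.7% of the control and was not called. The cluster that follows, at 1926748 to 1926793, had 17, 15 and 10 control and 4, 13 and 4 disruptant tags, or 46.6% of the control level, and was not called (log2 −1.09, SE 0.47). It was called lower without disruptant library 2 (edgeR adjusted p = 0.0277), and with positions joined within 50 bp the cluster that holds it was lower (edgeR adjusted p = 0.0046), so the outer limit of the tract depends on the setting.

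The next, on the plus strand at 1927324 to 1927737, was the second most abundant of the stretch and did not follow the tract. It had 10074, 9016 and 8056 tags in the control and 10557, 9178 and 10200 in the disruptant, levels of 2873 ± 224 and 2953 ± 246 CPM that overlapped (log2 0.04, SE 0.13). Downstream of it on the same strand, the clusters up to 1929192 were not called. Those at 1929430 to 1930001 and at 1930114 to 1930977 were higher, with 492, 572 and 448 tags against 766, 785 and 715 in the first (log2 0.48, SE 0.14). The second went from 80.6 ± 7.52 to 111 ± 15.8 CPM (log2 0.46, SE 0.16). The higher calls of the stretch are less firm than the lower ones. Only 1 cluster was called higher without disruptant library 2, and 4 to 6 without any other library. These counts include new calls. Of the 6 higher clusters, 3 to 5 kept the call when any one of those other libraries was left out, and 2 kept it without the filter.

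**Figure D4:**
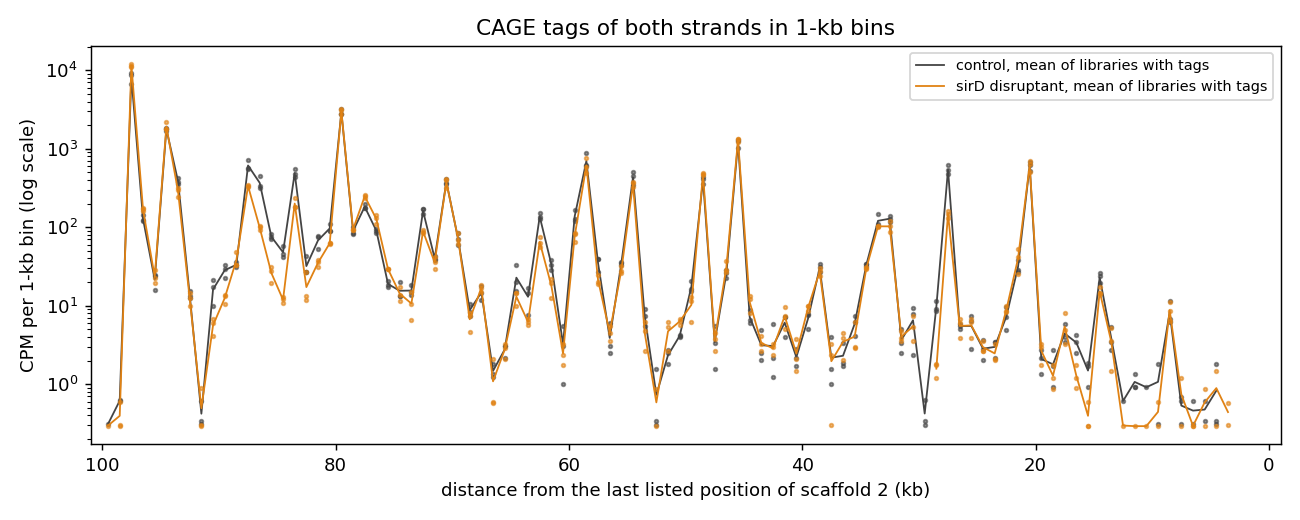
CAGE tags of both strands in 1-kb bins (CPM, log axis) against distance from the last listed position, with points for libraries and lines for means over libraries with tags, since bins without tags cannot be drawn on this axis. In the bins centred from 80.5 to 90.5 kb, except that at 88.5 kb, the control mean (black) lies above the disruptant mean (orange). It also does so in other bins, among them those at 72.5, 62.5, 59.5, 28.5 and 27.5 kb. The lines run close together at most high peaks, but at the highest, at 97.5 kb, the disruptant lies above.

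In 10-kb bins of all tags, the bin from 1917003 to 1927002 fell from 1852 ± 171 to 838 ± 26.3 CPM, or 45.3% of the control. Its 27 lower clusters hold most of these tags, so the fall is not separate from the calls. The lower clusters of the largest tract together gave 1601 ± 166 CPM in the control and 663 ± 30.7 CPM in the disruptant. On either side, the bin from 1927003 to 1937002 was at 102.8% and that from 1907002 to 1917002 at 132.5%. In the latter, the most abundant cluster alone gave 7141 of 10545 control CPM and 9920 of 13967 disruptant CPM. The median log2 difference of the tested clusters there was 0.08. Clusters below the count filter were summed in the same way. Inside the tracts, 190 such clusters had 379, 286 and 265 tags in the control and 181, 179 and 203 in the disruptant, which is 56.4% of the control after scaling. Elsewhere in the stretch, 555 clusters below the filter stood at 102.5% of the control, and in the rest of scaffold 2 the figure was 103.0%. These clusters took no part in the calls, but they come from the same libraries, and starts inside a tract can share transcripts with its called clusters.

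The 5 clusters with most tags among those below the filter whose libraries did not overlap were as follows. At 1921129 to 1921150, 39 control and 13 disruptant tags were counted, at 1925951 to 1925972, 32 and 19, and at 1979026 to 1979038, 39 and 8. The other two had more tags in the disruptant. The plus-strand cluster at 1931374 to 1931434 had 3, 4 and 2 control tags and 9, 17 and 12 disruptant tags. The ratio of its summed tags was 392.9% (exact 95% counting interval 186.7% to 924.0%). At 1974341 to 1974384, 16 control and 30 disruptant tags were found. In all, 16 of the 68 clusters below the filter with 20 or more tags had no overlap (23.5%, against 20.4% of all such clusters in the table), and 11 of them were lower in the disruptant (16.2%, against 11.1%).

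Between 1933916 and 1947247, lower starts alternated with starts that were not called. The minus-strand cluster at 1934339 to 1934572 had 393, 464 and 443 tags against 257, 240 and 259, and fell from 138 ± 14.5 to 74.6 ± 3.94 CPM (log2 −0.89, SE 0.15). On the plus strand, the broad cluster at 1936323 to 1937209 was level, with 1421, 1292 and 1166 tags against 1453, 1199 and 1497, or 99.7% of the control. The run of clusters not called reached 1939995.

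The second largest tract, at 1942445 to 1947247, was mostly on the minus strand. Its cluster at 1944053 to 1944158 had 301, 252 and 179 tags against 119, 110 and 140, and that at 1943930 to 1944021 had 173, 159 and 171 against 84, 69 and 89. They kept 47.2% and 44.7% of the control, without overlap between strains. The clusters at 1942445 to 1942564 and at 1944413 to 1944527 kept 39.0% and 38.8%, the latter with 36 control and 15 disruptant tags in all. The plus-strand cluster at 1945433 to 1945462 had 17, 14 and 13 tags against 4, 2 and 2, which is 16.9% of the control from summed tags (exact 95% counting interval 6.88% to 36.3%). It and the cluster at 1944413 to 1944527 had passed the count filter through their control libraries alone.

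A lower start and one that was not called lay side by side on a strand at the end of that tract. The minus-strand cluster at 1947210 to 1947247 had 244, 215 and 179 tags against 52, 91 and 68, and fell from 67.4 ± 7.66 to 20.8 ± 5.54 CPM (log2 −1.70, SE 0.20). Upstream of it on that strand, the abundant cluster at 1947868 to 1948098 had 2962, 2106 and 1858 tags against 2673, 1779 and 2032. Its levels of 732 ± 164 and 640 ± 143 CPM overlapped (log2 −0.19, SE 0.17). The small clusters between them, from 1947431 to 1947836, were not called.

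The abundant start sites from 1951937 to 1961594 were not called. The minus-strand start at 1951937 to 1952158 was at 431 ± 81.2 and 350.4 ± 24.7 CPM, with overlapping libraries, and that at 1958348 to 1958505 at 388 ± 42.0 and 467 ± 15.1 CPM, without overlap. The minus-strand cluster at 1960855 to 1961193 and the plus-strand cluster at 1961388 to 1961594, 195 bp apart and pointing in opposite directions, were at 98.8% and 114.7% of the control. Their control levels, 459.5 ± 18.1 and 742 ± 142 CPM, overlapped with the disruptant levels. Single lower clusters with less signal lay before and among them. At 1949529 to 1949719 the level fell to 64.5% of 30.5 ± 5.56 CPM, and at 1957905 to 1958027 to 40.8% of 11.8 ± 0.931 CPM.

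The longest distance between tested clusters, 6.57 kb, followed at 1961594 to 1968166. Beyond it, the minus-strand cluster at 1968166 to 1968192 had 7, 2 and 3 tags in the control and 13, 12 and 11 in the disruptant. It was called higher (log2 1.45, SE 0.50), with a ratio of summed tags of 279.2% (exact 95% counting interval 142.0% to 589.3%), and it had passed the count filter through the disruptant libraries alone. From 1968576 to 1972873 no cluster was called. The minus-strand cluster at 1973083 to 1973166, with 39, 33 and 27 tags against 13, 9 and 11, kept 31.2%. This cluster had passed the count filter through the control libraries alone. Its plus-strand neighbour 454 bp away, at 1973620 to 1974164, was not called, at 212.5 ± 24.6 and 174 ± 12.8 CPM, although its libraries did not overlap.

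The outermost tract held a single abundant start and its satellites. The minus-strand cluster at 1979262 to 1979621 had 1851, 1523 and 1499 tags in the control and 468, 424 and 527 in the disruptant. It fell from 516.5 ± 55.9 to 140 ± 16.5 CPM (log2 −1.88, SE 0.15), and every disruptant library was at 24.0% to 30.3% of the control mean. Downstream on the strand, the cluster at 1979163 to 1979224 had 64, 22 and 29 tags against 13, 9 and 6, and that at 1978907 to 1978997 had 15, 11 and 10 against 1, 3 and 1. The last is 12.9% of the control from summed tags (exact 95% counting interval 3.96% to 33.0%). Both small clusters had passed the count filter through the control libraries alone. The nearest other tested clusters lay 4743 bp away on the inner and 5681 bp away on the outer side.

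Beyond that tract no start site was called. The minus-strand cluster at 1986091 to 1986220 had 1263, 1739 and 1455 tags against 1143, 1661 and 1846 and was at 97.0% of the control. On the plus strand, facing away from it, the cluster at 1986247 to 1986385 was at 46.1 ± 4.99 and 47.0 ± 0.228 CPM. The cluster at 1992892 to 1993004 was lower in all disruptant libraries, at 19.2 ± 3.52 and 12.5 ± 0.486 CPM, and was not called (log2 −0.62, SE 0.23). The last tested cluster, at 1998238 to 1998307, was at 6.12 ± 1.66 and 6.82 ± 2.49 CPM. In the remaining 8.70 kb, 7 clusters held 9 control and 11 disruptant tags, and the last tag lay at 2003470. A difference there was not detectable at this depth.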

How the data were processed

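Per the labels, the 6 columns of the deposited table belong to the 6 libraries, matched by their descriptions. The columns hold counts of CAGE tags for each position and strand as deposited, whole numbers with no normalization visible. The submitters' processing notes name FastQC, BWA and bedtools. How reads that match several places were handled, and which genome build was used, the sources do not say. The file counts positions from 0, so 1 was added, and a minus-strand position was taken as the transcript's 5′ end. The table's 1048575 rows are in text order of position and end inside scaffold 2, and every position of the last 100 kb sorts before that end. The stretch held 26321 rows, of which 12067 had no tag and 6671 a single tag over the 6 libraries, and these entered no cluster. The other 7583 rows had 2 or more tags.

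Clusters of the whole table passing edgeR's filterByExpr (minimum count 10) were scaled by TMM and compared by the quasi-likelihood fit without covariates (edgeR 4.0.16, limma 3.58.1, R 4.3.3, with DESeq2 1.42.0 as an alternative), after the scripts were tested on simulated data. SE is the log2 difference over the root of the F statistic. Clusters named by rule are the 10 lower ones with the smallest p, all higher ones, the 6 most abundant, the 6 most abundant not called, the ends of runs of 3 or more equal calls, the outermost tested clusters and 5 below the filter. Others were chosen after their values were seen. The members and lists were chosen with earlier results of these data known. Exact intervals (95%, from a conditional binomial test of summed tags) cover counting error only, since tags without molecular identifiers are not independent molecules.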

Additional observations from a re-analysis of the deposited data

How the results depend on the processing

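The 43 lower and 6 higher clusters became 42 and 6 with a replicate block, 30 to 43 lower and 4 to 9 higher under the other scalings, filter, tool and cluster definitions, and 34 to 39 lower and 1 to 6 higher without single libraries. In every one of the 12 settings that kept the clusters, 29 of the 43 were called lower. An adjusted p below 0.01 left 30 lower and 1 higher, a 2-fold minimum 33 and 1. Added after seeing the data, leading clusters alone gave 8 lower and 2 higher, and clusters at the count minimum in both strains 26 lower and 5 higher. The longest lower run of 13 became 3 without the filter, where more clusters lie between, 7 with joining within 50 bp or positions of 10 or more tags, 5 at 0.01, 9 with the block, and 5 to 13 without single libraries. The median of −0.39 became −0.08 without the filter (861 clusters), close to the −0.066 over all clusters in that setting. It became −0.19 with joining within 5 bp and −0.26 with positions of 10 or more tags, against 0.000 and 0.013 over all tested clusters. Other settings gave −0.36 to −0.50. For these shifts the cause was not tested. The tag share difference of 0.735 percentage points became −0.5 without the most abundant cluster. The cluster with changed use was called in 0 to 1 cases without single libraries and in 1 with the replicate block.

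Same-numbered libraries deviated together at r = 0.1, 0.0615 and 0.0455 over clusters, too little to pair them. Of 677 combinations of 44 named clusters and settings, 61 lost and 4 gained a call and none reversed. Depth limits clusters under about 10 tags per library. Gene-level results and their distance alternative were not run, since no annotation in these coordinates was used.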
